A study of Mus musculus with 12 samples.

Results

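The genes described here are 35 markers of mature adipocytes and of lipid storage, taken by symbol from the 29956 named genes of a day 3 table of diabetic mouse wounds. They were listed by name for what they do in fat cells, with earlier results of these data known. All 35 were found and passed the filter on low counts. Wounded back skin was sequenced as ribosome-depleted total RNA in 12 libraries. There were 4 libraries of wounds given Staphylococcus aureus, a Gram-positive skin pathogen, 4 of wounds given Alcaligenes faecalis, a Gram-negative bacterium, and 4 of wounds given vehicle, which was phosphate-buffered saline (PBS) with glycerol. All mice carried the genotype B6.BKS(D)-Leprdb/db, had full-thickness punch wounds and were sampled on day 3, so no group was lean, unwounded or from another day. Mice of this genotype lack a working leptin receptor, overeat, and become obese and diabetic. Age and sex were not given in the sources used here. Nothing in the labels says that the replicates came from separate animals, so p-values measure only the spread between these samples, which may be technical.

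Mouse skin rests on a layer of dermal white adipose tissue. Its fat cells store triglyceride in a lipid droplet coated by perilipins and CIDE proteins, break it down by lipolysis, and secrete adipokines such as adiponectin and leptin. The nuclear receptor PPARγ and the factor C/EBPα switch on most of this programme and keep it on. Dermal adipocytes are known to respond to skin wounding and to Staphylococcus aureus at the skin surface. In bulk skin, fewer fat cells and less RNA per fat cell cannot be told apart.

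Levels are given in CPM, the counts per 1 M of a library size that TMM scaling had aligned on the bulk of genes. Libraries held 38.4 to 71.3 M estimated counts. For p-values, the quasi-likelihood test of edgeR was used, adjusted by Benjamini-Hochberg over the 18218 genes tested. A gene is said to rise or fall where its adjusted p is under 0.05. Standard errors (SE) stand in parentheses after log2 fold changes. Each was derived as the absolute log2 fold change divided by the square root of the F statistic of that test. They are not direct estimates, least of all for genes with very few counts such as Plin1. Without vehicle replicate 3, the fit covered 18385 genes.

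Promoters of the 2 adipokines on which the description of fat make-up below rests are printed here. Both are the 250 bases before the start of the gene in RefSeq (mouse build GRCm38.p6, plus strand), at chr6:29059971-29060220 for Lep and at chr16:23146286-23146535 for Adipoq. Capitals mark the 1 match to the C/EBP element.
Lep: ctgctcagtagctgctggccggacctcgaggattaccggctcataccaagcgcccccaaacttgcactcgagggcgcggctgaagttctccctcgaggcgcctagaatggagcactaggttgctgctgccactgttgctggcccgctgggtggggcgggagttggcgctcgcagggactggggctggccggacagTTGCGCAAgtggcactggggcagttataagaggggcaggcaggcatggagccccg
Adipoq: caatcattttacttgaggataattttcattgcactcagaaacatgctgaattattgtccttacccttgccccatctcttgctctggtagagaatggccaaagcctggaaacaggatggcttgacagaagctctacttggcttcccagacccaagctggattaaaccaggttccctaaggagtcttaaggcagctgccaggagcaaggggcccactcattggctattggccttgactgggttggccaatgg

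The match in Lep, TTGCGCAA, began 55 bases before the annotated start, and the Adipoq stretch held none. The GC content was 65.6% in the Lep stretch and 48.8% in the Adipoq stretch. The motifs searched, on both strands and allowing overlap with each other, were TTGCNNAA for C/EBP, TCACNCCAC for the sterol element, TATAAA for the TATA box and the direct-repeat element of the PPAR-RXR dimer. RefSeq windows of 300 bases (250 before and 50 after the start) were at hand for 24 of the 35 genes, in 32 windows. The C/EBP letters stood in 5 of these 32 windows (15.6%) and in 10.8% of all 32851 windows. The 5 genes were Plin1, Cidec, Lep, Nrg4 and Pparg. The sterol element stood in 1 member window (3.12%, Acsl1) and in 1.24% of all windows, and the TATA box in 2 (6.25%, Pparg and Cebpa) and in 13.6%. The PPAR-RXR letters stood in no member window and in 0.0396% of all windows.

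Vehicle replicate 3, which had been singled out beforehand for its fat signal, had the highest levels. It was the highest of the 12 libraries for 34 of the 35 genes, Dgat1 being the exception. Summed over the 35 genes, its level was 27370 CPM, against 6466 to 7996 CPM in the other 3 vehicle libraries. The sums were 4016 to 7166 CPM with S. aureus and 7274 to 10542 CPM with A. faecalis. Its label and protocol are those of the other vehicle samples, and log2 fold changes of the 35 genes against vehicle are therefore given with and without it.

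**Figure D1:**
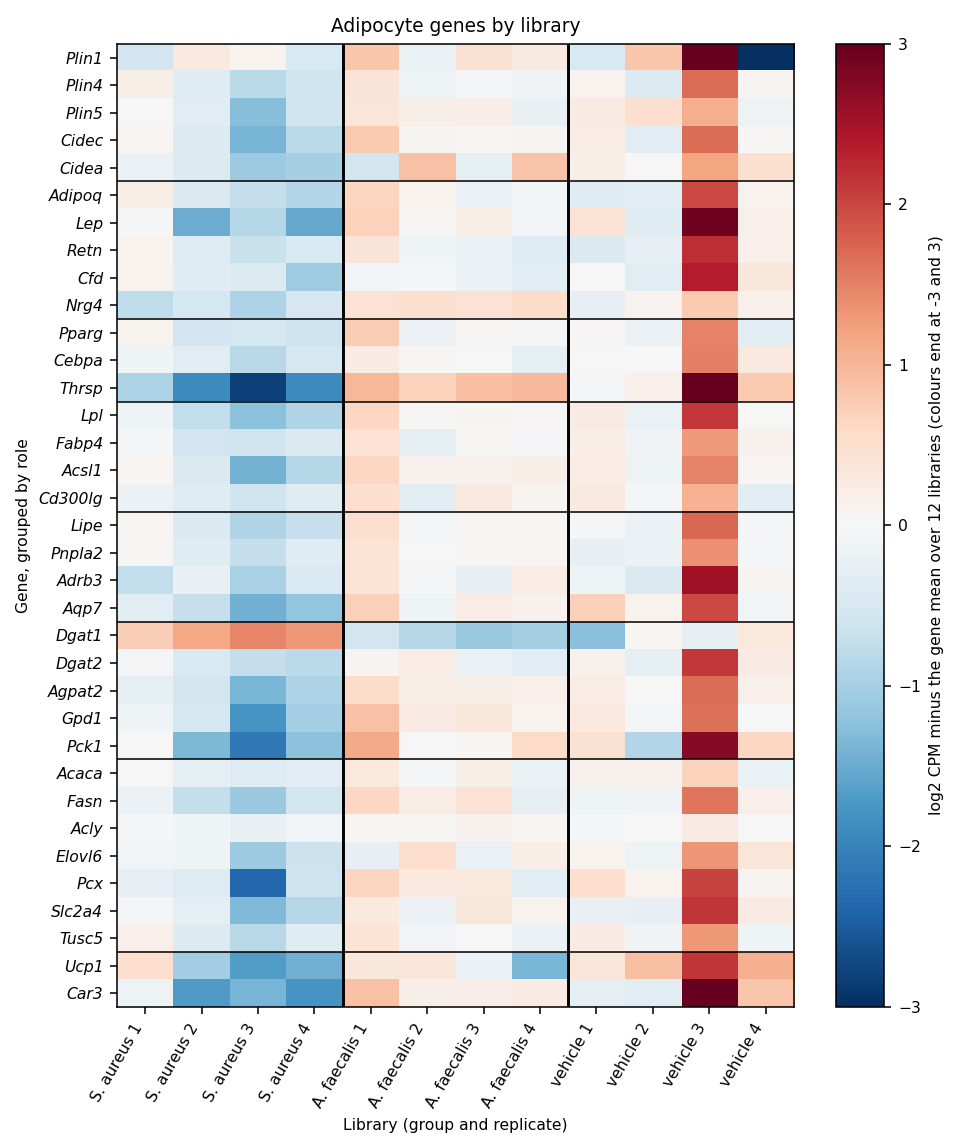
Levels of the 35 genes (rows, grouped by role) in the 12 libraries (columns), as log2 CPM minus the gene's mean over the libraries, with red above and blue below that mean. Vehicle replicate 3 is red in 34 rows, and Dgat1 is the row with blue in all 4 A. faecalis columns and red in all 4 S. aureus columns.

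The excess in vehicle replicate 3 was uneven between genes. Against the mean of the other 3 vehicle libraries it was 8.31-fold for Car3, a carbonic anhydrase abundant in fat and muscle. It was 6.98-fold for Thrsp, a nuclear protein that promotes fatty acid synthesis, 6.95-fold for Lep, which encodes leptin, and 6.81-fold for Adrb3, the β3-adrenergic receptor of fat cells. Adipoq (adiponectin), Retn (resistin) and Cfd (adipsin), all secreted by mouse fat cells, were 4.47-fold, 5.18-fold and 5.04-fold higher. Fabp4, the fatty acid carrier of adipocytes, was 2.29-fold higher and Acaca, acetyl-CoA carboxylase, 1.59-fold. Acly, ATP citrate lyase, was 1.21-fold higher and Dgat1, which completes triglyceride synthesis, stood at 0.938 of the others' mean. In all, 29 of the 35 genes were at least 2-fold above the other vehicle libraries. Among genes with a mean of at least 1 CPM, these were 28 of 34 members and 5.37% of all 15003 genes. The median ratio was 3.11 over those members and 1 over all those genes. Because that library had been singled out for its fat signal, these values describe it and test nothing.

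Genes outside the list that were highest in that library were mixed. The 10 with the largest ratio were Gatad2b, Brca2, Daam2, Dusp15, Klf15, Retnla, Myoc, Sfrp5, Klf14 and Tmem179. Klf15, a Krüppel-like factor of fat and muscle, was at 17.2 CPM there and at 1.55 to 3.24 CPM in the other vehicle libraries. Sfrp5, a Wnt inhibitor secreted by fat, was at 191 CPM and at 20.5 to 35.8 CPM. Gatad2b, Brca2 and Daam2 were listed at 0 in at least 1 of the other vehicle libraries and at no more than 0.989 CPM in any, so their ratios rest on values near 0. The summed neutrophil list was lowest of all 12 libraries there (719 CPM, and 2253 to 8927 CPM in the other vehicle libraries), and the skeletal muscle list highest (2990 CPM, and 1674 to 2691 CPM). The part of either in the excess was not tested.

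**Figure D2:**
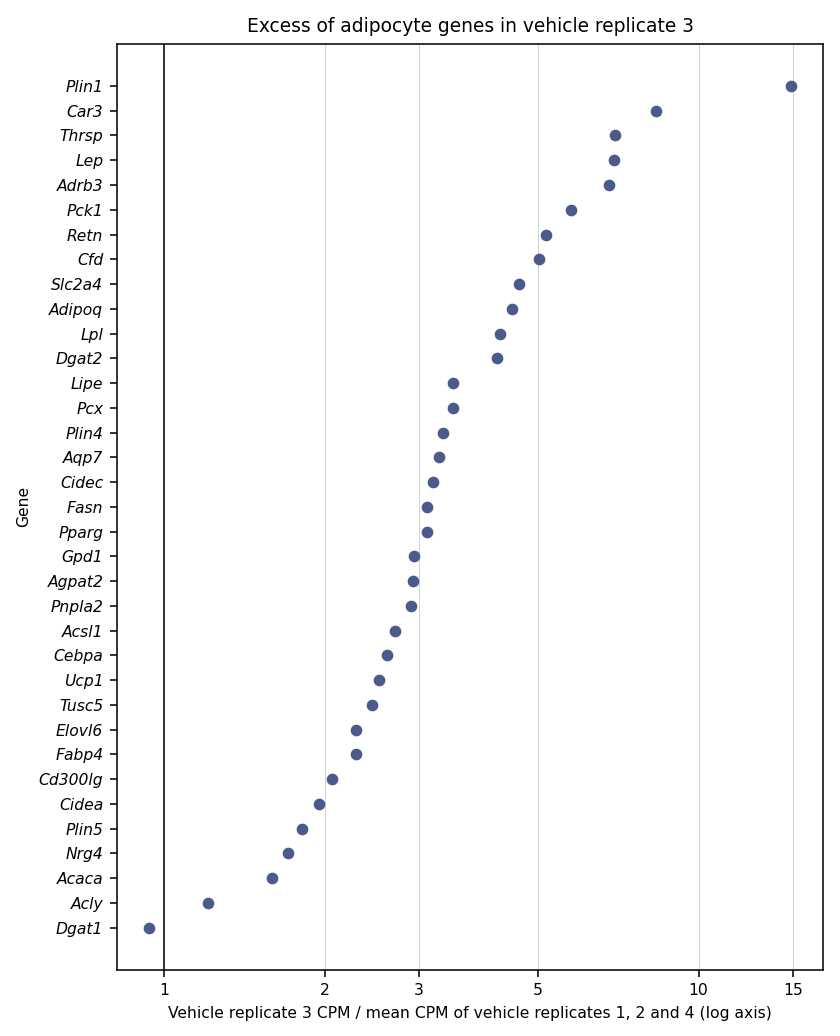
Level of each of the 35 genes in vehicle replicate 3 divided by its mean in vehicle replicates 1, 2 and 4, on a log axis, with 1 marked by a line. The ratios run between 0.938 for Dgat1 and 14.9 for Plin1, a gene with 0 estimated counts in vehicle replicate 4.

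With S. aureus, compared with vehicle, most of the 35 genes had lower levels and few passed the test. Of the 35, Thrsp, Nrg4, Aqp7, Agpat2 and Car3 fell and Dgat1 rose. Over all genes tested, 2.97% were called lower and 3.87% higher. The median log2 fold change of the 35 genes was -1.18, and it was -0.04 over all genes tested; 34 of the 35 were below 0, as were 54.7% of all genes. Without vehicle replicate 3, Thrsp, Nrg4, Aqp7 and Agpat2 were lower and Dgat1 higher, with 2.27% and 3.02% of all genes called lower and higher. The median of the 35 genes was then -0.53, and that of all genes -0.01.

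Thrsp had the largest fold change. It was at 7.71, 3.94, 2.11 and 3.95 CPM in S. aureus replicates 1 to 4, against 14.5, 16.6, 132 and 25.7 CPM in vehicle replicates 1 to 4. Its level in every S. aureus library lay below every vehicle library. The log2 fold change was -3.42 (SE 0.696, edgeR adjusted p = 0.0203), and without vehicle replicate 3 it was -2.09 (SE 0.331, adjusted p = 0.011).

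Nrg4 encodes neuregulin 4, an EGF-family ligand that fat cells secrete and that acts on the liver in mice. It was at 10.1, 11.9, 9.14 and 12.1 CPM with S. aureus, against 14.6, 18.6, 29.9 and 19.2 CPM with vehicle. The groups did not overlap. Its fold change on the log2 scale was -0.92 (SE 0.184, edgeR adjusted p = 0.0183), and -0.67 (SE 0.121, adjusted p = 0.0147) without vehicle replicate 3.

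Aqp7 is the channel through which fat cells release glycerol during lipolysis. Its levels were 34.8, 27.0, 16.1 and 19.3 CPM with S. aureus, against 71.6, 46.7, 174 and 41.4 CPM with vehicle. All 4 S. aureus libraries were below all 4 vehicle libraries. On the log2 scale the change was -1.78 (SE 0.431, edgeR adjusted p = 0.0334), and -1.12 (SE 0.282, adjusted p = 0.0459) without vehicle replicate 3.

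Agpat2 makes phosphatidic acid on the way to triglyceride, and its loss causes lipodystrophy in humans and mice. It was at 63.2, 52.8, 29.6 and 40.5 CPM with S. aureus, against 89.5, 75.7, 244 and 85.7 CPM with vehicle, again without overlap. For Agpat2 the log2 fold change was -1.41 (SE 0.36, edgeR adjusted p = 0.0403), and -0.83 (SE 0.208, adjusted p = 0.044) without vehicle replicate 3.

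Dgat1 went the other way. It was at 195, 265, 324 and 292 CPM with S. aureus, against 49.4, 123, 99.8 and 146 CPM with vehicle, and every S. aureus library was above every vehicle library. Its log2 fold change was 1.36 (SE 0.28, edgeR adjusted p = 0.0209), and 1.36 (SE 0.321, adjusted p = 0.0383) without vehicle replicate 3. Its partner Dgat2, which carries out the same last step of triglyceride synthesis with an unrelated protein, had a log2 fold change of -1.36 (SE 0.451, edgeR adjusted p = 0.0825), and -0.50 (SE 0.198, adjusted p = 0.159) without vehicle replicate 3. Dgat1 is also expressed outside fat. The summed neutrophil list was 9485, 11613, 15045 and 11231 CPM in S. aureus replicates 1 to 4. It was 2253, 5456, 719 and 8927 CPM in vehicle replicates 1 to 4. The list and Dgat1 did not rank the libraries of either group alike. In A. faecalis replicates 1 to 4 the list was 1787, 4223, 2113 and 4238 CPM, with Dgat1 at 80.1, 65.2, 54.8 and 57.9 CPM. The list's part in the Dgat1 result was not tested.

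Car3 was called only with vehicle replicate 3 in the fit. It was at 378, 129, 159 and 122 CPM with S. aureus, against 347, 337, 3960.3 and 746 CPM with vehicle. S. aureus replicate 1 lay inside the vehicle range. The log2 fold change was -2.77 (SE 0.756, edgeR adjusted p = 0.0493), and -1.26 (SE 0.411, adjusted p = 0.0979) without that library.

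**Figure D3:**
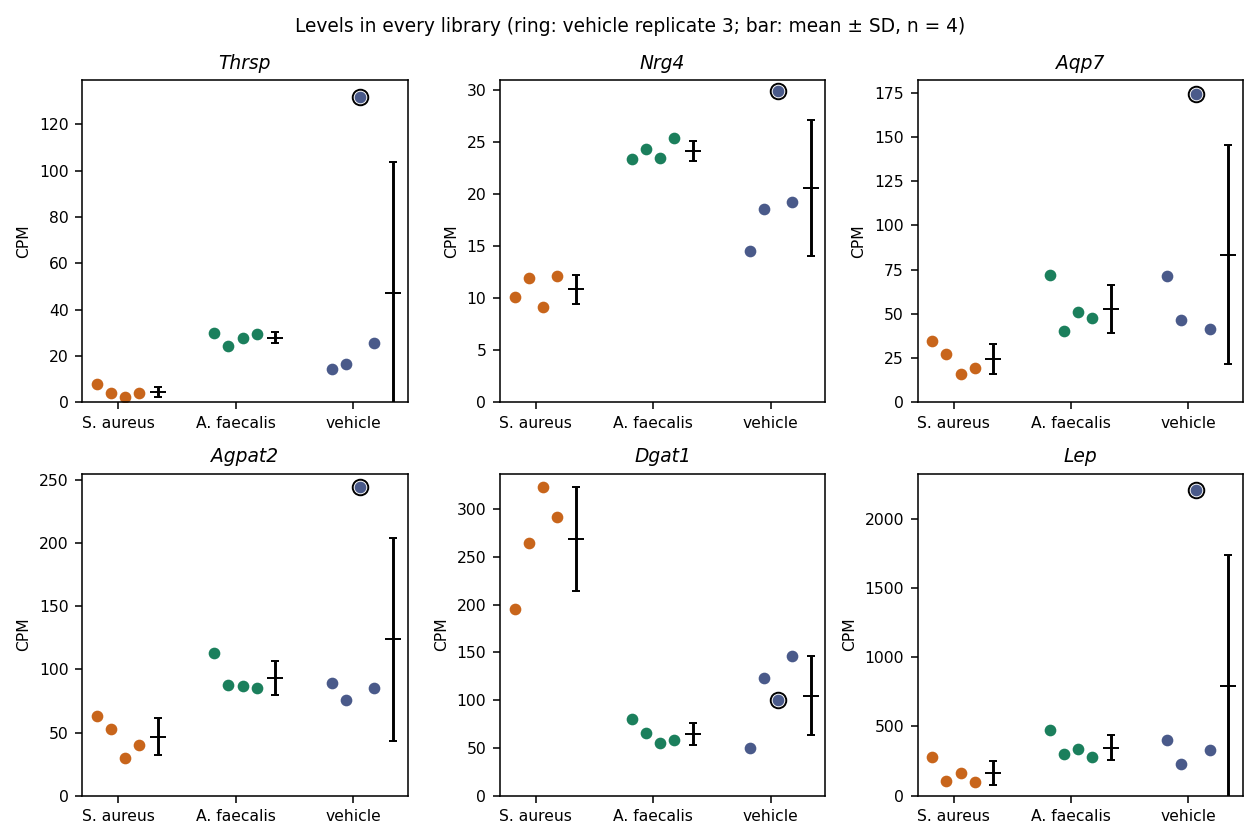
CPM of Thrsp, Nrg4, Aqp7, Agpat2, Dgat1 and Lep in each library of the 3 groups, with the mean and SD of 4 libraries beside each group and a ring around vehicle replicate 3. S. aureus libraries lie below all vehicle libraries for Thrsp, Nrg4, Aqp7 and Agpat2 and above them for Dgat1, and for Lep S. aureus replicate 1 overlaps the vehicle range.

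The calls turned on single libraries. Leaving out 1 library at a time gave between 0 and 10 of the 35 genes called lower, against 5 with all. The count was 8, 1, 0 and 1 without S. aureus replicates 1, 2, 3 and 4, 3, 2 and 3 without A. faecalis replicates 2, 3 and 4, and 3, 9 and 10 without vehicle replicates 1, 2 and 4. The share of all genes called lower lay between 0.489% without S. aureus replicate 3 and 4.11% without vehicle replicate 4. That share did not follow the count in every fit. It was 2.62% without S. aureus replicate 1 and 2.8% without vehicle replicate 2, against 2.97% with all libraries. The call of Nrg4 was lost without S. aureus replicate 3 (adjusted p = 0.0688), that of Dgat1 without S. aureus replicate 3 or 4 (up to 0.0699) and that of Thrsp without S. aureus replicate 2, 3 or 4 (up to 0.0703). Aqp7 lost its call without 5 libraries (vehicle 1, A. faecalis 3, S. aureus 2, 3 and 4; up to 0.108) and Agpat2 without 7 (vehicle 1, A. faecalis 2, 3 and 4, S. aureus 2, 3 and 4; up to 0.12). Car3 lost its call without 8 (vehicle 3, all 4 of A. faecalis, S. aureus 2, 3 and 4; up to 0.137). In a fit of only the S. aureus and vehicle libraries none of the 6 was called (adjusted p = 0.0632 to 0.118), and 0.629% of all genes were called lower. DESeq2 gave an adjusted p to 33 of the 35 genes and called 23 of them lower, where it called 7.21% of all genes lower.

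At an unadjusted p under 0.05, 31 of the 35 genes were lower, where 14.8% of all genes were, and 18 were without vehicle replicate 3, where 11.1% were. Groups did not overlap in 10 genes that were lower with S. aureus (7.57% of all genes). They were Thrsp, Nrg4, Aqp7 and Agpat2, and with them Cebpa, Cidea, Gpd1, Fasn, Pcx and Acly. The same 10 did not overlap without vehicle replicate 3 (10.9% of all genes). Dgat1 was the 1 gene higher without overlap in both fits (7.56% and 9.62% of all genes).

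The lipid droplet proteins had log2 fold changes between -2.02 and -0.95, and none of the 5 passed the test. They lay between -0.86 and 0.16 without vehicle replicate 3, and none passed then either. Plin4, a perilipin of white fat, averaged 322 ± 101 CPM in S. aureus wounds and 623 ± 462 CPM with vehicle (mean ± SD, n = 4 each), or 394 ± 73.9 CPM in the 3 vehicle libraries other than replicate 3. For Plin4 the log2 fold change was -0.95 and, without that library, -0.28 (SE 0.225). Cidec, which fuses lipid droplets, was at 291, 211, 107 and 160 CPM with S. aureus, against 328, 227, 894 and 287 CPM with vehicle. S. aureus replicate 1 overlapped the vehicle range, and the log2 fold change was -1.17, or -0.53 (SE 0.298) without vehicle replicate 3. Plin5, a perilipin of oxidative tissues, had a log2 fold change of -0.99 (SE 0.291, edgeR adjusted p = 0.0602), and Cidea, a droplet protein also made by sebocytes, -1.18 (SE 0.393, adjusted p = 0.0833), with no library of the S. aureus group above 1.46 CPM and none of vehicle below 1.67 CPM. Plin5 had -0.71 (SE 0.26, adjusted p = 0.132) and Cidea -0.86 (SE 0.372, adjusted p = 0.194) without vehicle replicate 3. Plin1, the main perilipin of white fat cells, held only 22.6 to 66.3 estimated counts with S. aureus and 37.5, 86.9, 730 and 0 with vehicle, so its log2 fold change of -2.02 (SE 1.07) became 0.16 (SE 0.793) without vehicle replicate 3.

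Of the secreted factors other than Nrg4, Lep had the largest difference. It was at 282, 104, 161 and 101 CPM with S. aureus, against 398, 227, 2207 and 328 CPM with vehicle, with S. aureus replicate 1 above vehicle replicate 2. The log2 fold change was -2.29 (SE 0.664, edgeR adjusted p = 0.0585), and -0.96 (SE 0.345, adjusted p = 0.127) without vehicle replicate 3. Adipoq was at 163, 106, 87.4 and 78.1 CPM with S. aureus, against 111, 113, 565 and 155 CPM with vehicle. Its groups overlapped, and its log2 fold change of -1.12 (SE 0.49) was -0.21 (SE 0.262) without vehicle replicate 3. Retn and Cfd had log2 fold changes of -1.20 and -1.41 with all libraries, and of -0.16 and -0.38 without that one.

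The master regulators Pparg and Cebpa had log2 fold changes of -0.84 (adjusted p = 0.187) and -1.04 (edgeR adjusted p = 0.0624). Cebpa was at 118, 101, 72.2 and 90.0 CPM with S. aureus, against 130, 130, 365 and 159 CPM with vehicle. Those groups did not overlap. Cebpa had -0.53 (SE 0.162, adjusted p = 0.0804) and Pparg -0.21 (SE 0.241, adjusted p = 0.646) on the log2 scale without vehicle replicate 3. Lpl, lipoprotein lipase, which frees fatty acids for uptake, averaged 1031 ± 353 CPM in S. aureus wounds and 3096 ± 2786 CPM with vehicle (mean ± SD, n = 4 each), or 1707 ± 269 CPM without replicate 3. Its log2 fold change was -1.59 (edgeR adjusted p = 0.0643) with all libraries and -0.71 (adjusted p = 0.108) without that one. Fabp4 had -0.88 (SE 0.281), Acsl1, which activates fatty acids, -1.13 (SE 0.377), and Cd300lg, a membrane protein also found on endothelium, -0.71 (SE 0.262). These were -0.46 (SE 0.179) for Fabp4, -0.61 (SE 0.275) for Acsl1 and -0.36 (SE 0.19) for Cd300lg without vehicle replicate 3. None of these passed the test in either fit.

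The lipases Lipe and Pnpla2, which start the breakdown of stored fat, had log2 fold changes of -1.06 and -0.73, and of -0.35 and -0.16 without vehicle replicate 3. Adrb3, near the low end of detection, was at 0.279 to 0.501 CPM with S. aureus and at 0.538, 0.421, 3.58 and 0.619 CPM in vehicle replicates 1 to 4. For Adrb3 the change on the log2 scale was -1.73 (SE 0.629), and -0.42 (SE 0.28) without vehicle replicate 3.

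For the synthesis of triglyceride and fatty acids, Gpd1 (glycerol-3-phosphate dehydrogenase) was at 264, 200, 84.0 and 143 CPM with S. aureus, against 352, 280, 905 and 292 CPM with vehicle. Its groups did not overlap, with log2 fold changes of -1.41 (edgeR adjusted p = 0.0645) and -0.82 (adjusted p = 0.147) without vehicle replicate 3. Fasn, fatty acid synthase, was at 88.7, 61.4, 46.3 and 68.8 CPM with S. aureus, against 91.2, 93.0, 307 and 112 CPM with vehicle, without overlap. The log2 fold change of Fasn was -1.19 (edgeR adjusted p = 0.0766), and -0.56 (adjusted p = 0.171) without vehicle replicate 3. Acaca and Acly, which supply malonyl-CoA and acetyl-CoA, had log2 fold changes of -0.46 (SE 0.179) and -0.18 (SE 0.0816), and Elovl6, which lengthens fatty acids, -0.96 (SE 0.326). They were -0.24 (SE 0.142) for Acaca, -0.09 (SE 0.0683) for Acly and -0.54 (SE 0.248) for Elovl6 without vehicle replicate 3. Pcx, pyruvate carboxylase, was at 29.7, 27.4, 6.91 and 23.0 CPM with S. aureus, against 50.5, 37.9, 146 and 37.6 CPM with vehicle, without overlap. Its log2 fold change was -1.64 (SE 0.505, edgeR adjusted p = 0.0687), and -0.93 (SE 0.384, adjusted p = 0.174) without vehicle replicate 3. Slc2a4, the insulin-regulated glucose transporter GLUT4, had -1.43 (SE 0.505), and Tusc5, which takes part in its traffic, -0.79 (SE 0.314); without vehicle replicate 3 they had -0.49 (SE 0.261) and -0.32 (SE 0.21). Pck1, which feeds glycerol synthesis in fat, had log2 fold changes of -2.32 (SE 0.7) with all libraries and -1.17 (SE 0.491) without that one. Ucp1, the uncoupling protein of brown and beige fat, was at 14.4, 4.89, 3.18 and 3.74 CPM with S. aureus, against 13.0, 19.1, 45.0 and 21.3 CPM with vehicle. S. aureus replicate 1 overlapped the vehicle range for Ucp1, whose log2 fold change was -1.91 (SE 0.554, edgeR adjusted p = 0.0582), and -1.44 (SE 0.519, adjusted p = 0.128) without vehicle replicate 3.

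Without vehicle replicate 3, all 35 genes had a smaller absolute log2 fold change for S. aureus against vehicle, and only Plin1 changed sign. The median SE of the 35 genes was 0.397 with that library and 0.248 without it.

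A. faecalis against vehicle gave no called gene on the list. With edgeR, 0 of 35 were called, against 0.00549% of all genes in each direction, and 3 of the 35 were lower and 0 higher at an unadjusted p under 0.05, where 4.5% and 3.18% of all genes were. The 3 were Cfd, Dgat1 and Ucp1, and Cfd had a log2 fold change of -1.19 (SE 0.509) that was -0.17 (SE 0.229) without vehicle replicate 3. Without vehicle replicate 3 edgeR called 0 of 35 too (0.0109% of all genes lower, 0.00544% higher), and with all libraries limma-voom called 0 of the 35 and DESeq2 0 of the 33 to which it gave an adjusted p. The direction turned on vehicle replicate 3. With it the median log2 fold change of the 35 genes was -0.56 and 33 were below 0 (56.2% of all genes); without it the median was 0.17 and 26 were above 0 (52.1% of all genes).

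Nrg4 was at 23.4, 24.3, 23.5 and 25.4 CPM with A. faecalis, against 14.6, 18.6, 29.9 and 19.2 CPM with vehicle. Every A. faecalis library was above every vehicle library but replicate 3. Its log2 fold change was 0.23 (SE 0.181, edgeR adjusted p = 0.752), and 0.48 (SE 0.122, adjusted p = 0.357) without that library. Nrg4, Pnpla2 and Acly were the 3 genes that did not overlap, all higher, without vehicle replicate 3 (2.82% of all genes), and with it there was none in either direction (1.49% of all genes higher, 2.56% lower). No gene was lower without overlap in the fit without that library (4.7%).

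Adipoq was at 223, 155, 126 and 134 CPM with A. faecalis, against 111, 113, 565 and 155 CPM with vehicle. Its log2 fold change was -0.56 (SE 0.485) with all libraries and 0.35 (SE 0.265) without vehicle replicate 3, and the groups overlapped either way. Lep was at 474, 299, 335 and 279 CPM with A. faecalis, against 398, 227, 2207 and 328 CPM with vehicle, with log2 fold changes of -1.19 (SE 0.641) and 0.14 (SE 0.348). Thrsp was at 30.0, 24.4, 27.8 and 29.6 CPM with A. faecalis, and its log2 fold changes were -0.76 (SE 0.627) and 0.58 (SE 0.323). Dgat1 and Ucp1 were below 0 in both fits. Dgat1 was at 80.1, 65.2, 54.8 and 57.9 CPM with A. faecalis, with log2 fold changes of -0.70 (SE 0.277, edgeR adjusted p = 0.597) and -0.71 (SE 0.308, adjusted p = 0.679). Ucp1 was at 12.9, 13.1, 8.92 and 3.91 CPM with A. faecalis, with -1.34 (SE 0.541, edgeR adjusted p = 0.602) and -0.85 (SE 0.512, adjusted p = 0.778).

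S. aureus against A. faecalis compares 2 groups that do not hold vehicle replicate 3, although that library enters the shared estimate of spread. Thrsp and Nrg4 were lower and Dgat1 higher with S. aureus, where 5.06% of all genes were called lower and 7.62% higher. The log2 fold changes were -2.66 (SE 0.677, edgeR adjusted p = 0.0254) for Thrsp, -1.16 (SE 0.185, adjusted p = 0.00309) for Nrg4 and 2.06 (SE 0.286, adjusted p = 0.00176) for Dgat1. The groups did not overlap for any of the 3, with S. aureus at 2.11 to 7.71 CPM and A. faecalis at 24.4 to 30.0 CPM for Thrsp. Nrg4 and Dgat1 were called whichever of the 12 libraries was left out, and Thrsp was not called without A. faecalis replicate 3 or 4 or S. aureus replicate 2, 3 or 4 (adjusted p up to 0.0751).

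With vehicle replicate 3 out of the fit, 12 of the 35 genes were called lower and 1 higher, where 8.65% and 10.2% of all genes were. Without overlap, 10 of the 35 were lower and 1 higher in both fits (11.5% and 11.8% of all genes with all libraries, 11.4% and 11.7% without that one). The fold changes barely moved (median -0.59 in both fits), while the median SE was 0.231, against 0.395 with all libraries. The 12 were Thrsp, Nrg4, Lep, Lpl, Acsl1, Lipe, Aqp7, Agpat2, Gpd1, Pck1, Fasn and Car3. Agpat2 was at 63.2, 52.8, 29.6 and 40.5 CPM with S. aureus, against 113, 87.6, 86.8 and 85.6 CPM with A. faecalis, without overlap (edgeR adjusted p = 0.00613). Aqp7 had a log2 fold change of -1.12 (SE 0.266, edgeR adjusted p = 0.0156). Lpl had -0.91 (SE 0.227, adjusted p = 0.0189), and Lep -1.10 (SE 0.325, adjusted p = 0.0378). Lep was at 282, 104, 161 and 101 CPM with S. aureus, against 474, 299, 335 and 279 CPM with A. faecalis, and the groups overlapped, S. aureus replicate 1 standing above A. faecalis replicate 4. The lipid droplet proteins and Adipoq, Retn, Cfd, Pparg and Cebpa were not called in either fit.

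**Figure D4:**
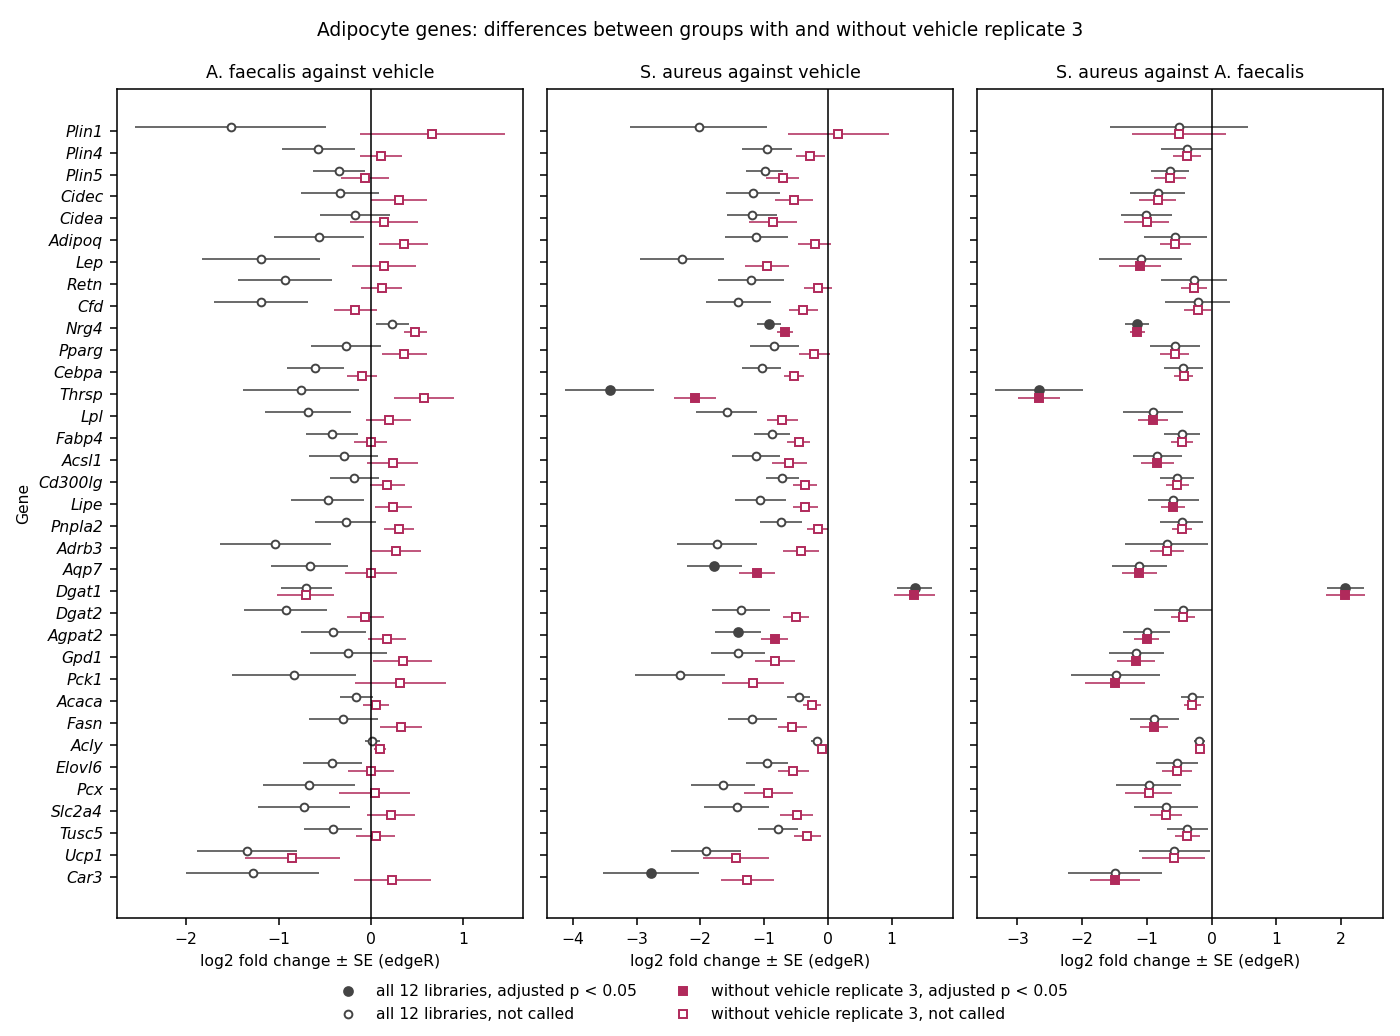
Log2 fold changes from edgeR, with the SE derived from its F statistic, for the 35 genes in the 3 comparisons. Circles show the fit of 12 libraries and squares the fit without vehicle replicate 3, filled where the adjusted p is under 0.05. For A. faecalis against vehicle the circles lie mostly left of 0 (median -0.56) and the squares mostly right of it (median 0.17), while for S. aureus against A. faecalis both lie at the same place (median -0.59) with shorter bars for the squares.

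The make-up of the fat signal was described by the ratio of each gene to Adipoq in the same library, which does not depend on how libraries are scaled. The ratio was taken for 33 genes, leaving out Plin1. It put all 4 S. aureus libraries below all A. faecalis and all vehicle libraries for 4 genes, Lep, Thrsp, Aqp7 and Car3, and above them for Dgat1. Of the 17829 genes tested that were at 0 in no library, 0.185% lay below and 2.8% above in the same way. With all libraries, no gene of the 33 separated A. faecalis and vehicle. Of all those genes, 0.0729% were lower and 0.0785% higher with A. faecalis. Without vehicle replicate 3, A. faecalis lay below vehicle for Ucp1, Cebpa and Dgat1. The share of all genes was not taken for that set. The log2 ratio of Ucp1 was -5.10 to -3.57 with A. faecalis and -3.09, -2.57, -3.65 and -2.86 in vehicle replicates 1 to 4. Adipoq itself had a log2 fold change of -1.12 with S. aureus against vehicle and a 4.47-fold excess in vehicle replicate 3. Its level enters every ratio, so these shares are no chance rate for the 33 genes. The log2 ratio of Lep to Adipoq was 0.79, -0.02, 0.88 and 0.37 in S. aureus replicates 1 to 4. It was 1.09, 0.94, 1.41 and 1.05 in A. faecalis replicates and 1.84, 0.999, 1.97 and 1.08 in vehicle replicates, replicate 3 being the highest.

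The log2 ratio of Thrsp to Adipoq was -5.37 to -4.31 with S. aureus, -2.89 to -2.18 with A. faecalis and -2.93 to -2.10 with vehicle. That of Gpd1 was -0.06 to 0.92 with S. aureus, 1.14 to 1.52 with A. faecalis and 0.68 to 1.67 with vehicle, and Gpd1 and Pck1 separated S. aureus from A. faecalis only. With the 4 genes above, 6 of the 33 were lower than in A. faecalis without overlap (0.404% of the 17829 genes, a share with the same limit). Lipe had mean log2 ratios of 0.15 ± 0.17 with S. aureus, 0.19 ± 0.18 with A. faecalis and 0.20 ± 0.28 with vehicle (SD, n = 4 each). Retn had -1.82 ± 0.22 with S. aureus, -2.13 ± 0.13 with A. faecalis and -1.85 ± 0.13 with vehicle (SD, n = 4 each). These ratios are a description with no test, and those beyond Lep, Retn, Cfd, Lipe, Fasn, Lpl and Acsl1 were added after values had been seen.

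**Figure D5:**
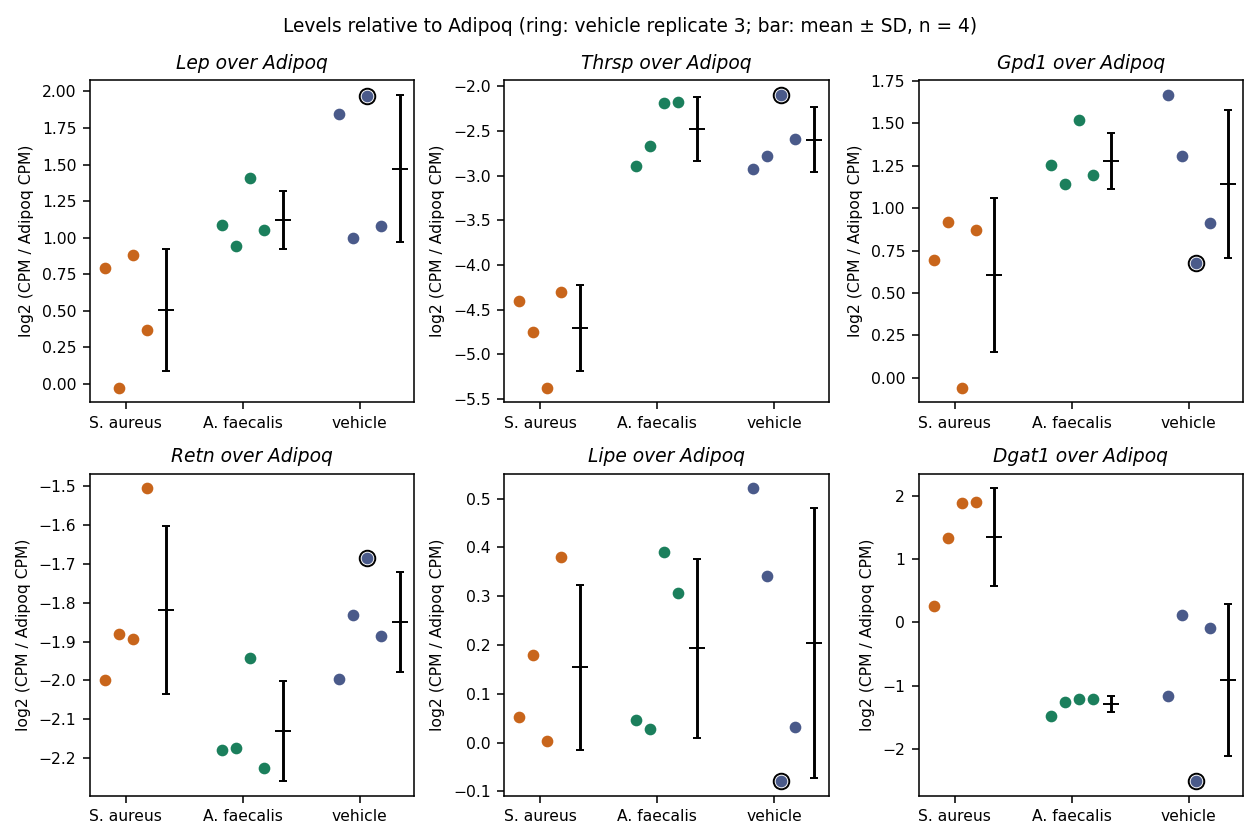
Log2 ratio of the CPM of 6 genes to the CPM of Adipoq in each library, with mean and SD of 4 libraries beside each group and a ring around vehicle replicate 3. S. aureus lies below both other groups for Lep and Thrsp, below A. faecalis for Gpd1 and above both for Dgat1, while the groups overlap for Lipe and Retn.

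Further genes of the same programme were read from lists that hold none of the 35. Of 46 other adipocyte and lipid storage genes, 4 fell and 2 rose with S. aureus against vehicle (2.97% and 3.87% of all genes). Their median log2 fold change was -0.82, beside -0.04 over all genes. Without vehicle replicate 3 it was -0.30, beside -0.01. Timp4 alone was then lower and Apold1 alone higher (2.27% and 3.02% of all genes). With all libraries, those that fell were Acvr1c (log2 fold change -2.55, SE 0.623, edgeR adjusted p = 0.0346), Timp4, Irs1 and Pnpla3. Acvr1c encodes the receptor ALK7, through which activin-family ligands hold back lipolysis in fat, and it averaged 18.4 ± 11.5 CPM in S. aureus wounds and 108 ± 102 CPM with vehicle (SD, n = 4 each). Without vehicle replicate 3 its log2 fold change was -1.62 (adjusted p = 0.061). Those that rose were Apold1, which is an endothelial gene, and Rarres2, which encodes the chemokine chemerin (log2 fold change 0.46, SE 0.12, adjusted p = 0.0416). Irs1 and Pnpla3 were named after their values were seen. With A. faecalis against vehicle none of the 46 was called (0.00549% of all genes in each direction). The median was -0.37 with vehicle replicate 3 and 0.08 without it, beside -0.03 and 0.01 over all genes.

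Of 12 brown and beige fat genes other than Ucp1 and Cidea, Cox7a1 alone fell with S. aureus against vehicle (log2 fold change -0.80, SE 0.184, edgeR adjusted p = 0.029, and 0.0565 without vehicle replicate 3). Of 11 genes of fat cell progenitors, 2 rose and 1 fell, where 3.87% and 2.97% of all genes did. Pdgfrb, a growth factor receptor of pericytes and progenitors, averaged 283 ± 11.2 CPM in S. aureus wounds and 192 ± 20.03 CPM in vehicle wounds (SD, n = 4 each), with an edgeR adjusted p = 0.0114 (0.0174 without vehicle replicate 3) at a log2 fold change of 0.56 (SE 0.0983). Pdgfra, its relative on fibroblasts and progenitors, had a log2 fold change of 0.46 (adjusted p = 0.0389, and 0.0688 without vehicle replicate 3), and Dpp4, a marker of early progenitors, one of -0.89 (adjusted p = 0.0325, and 0.0682). All 3 were called in the same direction for S. aureus against A. faecalis (7.62% of all genes higher, 5.06% lower).

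Several of the 35 genes are also made by other cells of skin, so summed marker lists are given. Macrophages, which also make Lpl and Acsl1, summed over 12 genes to 4446 to 5447 CPM with S. aureus, 6545 to 9112 CPM with A. faecalis and 4698 to 7852 CPM with vehicle. Of those 12, 7 fell for S. aureus against A. faecalis, where 5.06% of all genes did. Among them was Csf1r, the receptor that macrophages need to survive (log2 fold change -0.97, SE 0.168, edgeR adjusted p = 0.00415). Against vehicle 2 fell, Mertk and Emr1 (2.97% of all genes), and 5 fell without vehicle replicate 3 (2.27%). The 10 neutrophil genes summed to 9485 to 15045 CPM with S. aureus, 1787 to 4238 CPM with A. faecalis and 719 to 8927 CPM with vehicle. Of those 10, 6 rose for S. aureus against A. faecalis, where 7.62% of all genes did. Against vehicle 1 rose (3.87% of all genes), Camp, which was named after its value was seen. Its adjusted p was 0.0407 by edgeR, and 0.0622 without vehicle replicate 3. Sebocytes share Cidea, Fasn, Acaca and Elovl6 with fat, and 12 sebaceous genes summed to 484 to 521 CPM with S. aureus, 487 to 598 CPM with A. faecalis and 470 to 690 CPM with vehicle. Most of these sums came from Soat1 and Mgst1, named after their values were seen, which averaged 276.7 and 164 CPM with S. aureus. For S. aureus against vehicle, 11 of the 12 had a log2 fold change below 0, with a median of -0.97, and without vehicle replicate 3 these were 10 of 12 and -0.62. The medians of the 35 genes were -1.18 and -0.53. For S. aureus against A. faecalis 11 of the 12 were below 0, with a median of -0.66 (-0.65 without vehicle replicate 3), beside -0.59 for the 35 genes. None of those 12 was called with all libraries, and 2 were lower for S. aureus against A. faecalis without vehicle replicate 3 (8.65% of all genes). The part of sebaceous glands in the results for the 35 genes was not tested.

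Skeletal muscle under the dermis shares Slc2a4, Plin5 and Car3 with fat, and 14 muscle genes summed to 1670 to 2133 CPM with S. aureus, 1735 to 2389 CPM with A. faecalis and 1674 to 2990 CPM with vehicle. None of the 14 was called. For 10 endothelial genes the sums were 1484 to 1648 CPM with S. aureus, 1035 to 1476 CPM with A. faecalis and 949 to 1392 CPM with vehicle. Of those 10, Emcn and Pecam1 rose for S. aureus against vehicle, where 3.87% of all genes did. Emcn was the 1 endothelial gene called without vehicle replicate 3 (edgeR adjusted p = 0.031), and Pecam1 was not called (0.0632). For 10 fibroblast genes, none of them called with all libraries, they were 20355 to 25603 CPM with S. aureus, 18987 to 22783 CPM with A. faecalis and 19775 to 31538 CPM with vehicle. For 10 keratinocyte genes they were 1192 to 3389 CPM with S. aureus, 861 to 1656 CPM with A. faecalis and 1801 to 2720 CPM with vehicle. Of these, Krt15, a keratin of basal and hair follicle stem cells, alone fell with S. aureus against vehicle, where 2.97% of all genes did. Its log2 fold change was -4.23 (SE 0.613, edgeR adjusted p = 0.00791, and 0.00839 without vehicle replicate 3). Mammary epithelium, which lies in the fat of female mice, summed over 10 genes to no more than 106 CPM in any library, with 2 genes at 0 in all. Of these genes 5 were tested, and Esr1, the estrogen receptor, alone fell with S. aureus against vehicle, where 2.97% of all genes did. Its edgeR adjusted p was 0.0311, and 0.043 without vehicle replicate 3. The highest sum, in vehicle replicate 3, came mostly from Esr1 and Prlr, named after its value was seen, at 69.3 and 32.9 CPM. The keratins Krt8 and Krt18 were there at 0.27 and 0.50 CPM. No marker of the other lists was at 0 in all 12 libraries. The part of these cells in the results was not tested.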

How the data were processed

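The deposited table holds estimated counts per gene for the 12 libraries, made by the authors from ribosome-depleted total RNA. The submitters' processing notes name FastQC 0.12.1, kallisto 0.48.0, R 4.1.3, DESeq2 1.34.0 and build GRCm39, without roles. One of 29957 entries has no gene name and held 0.00909% to 0.0151% of each library; it was left out. Counts were rounded to whole numbers and fitted with edgeR 4.0.16 (R 4.3.3; TMM, filterByExpr with a minimum count of 10 and total of 15, robust quasi-likelihood test) over all 12 libraries in 1 fit. P-values were adjusted by Benjamini-Hochberg over all genes tested. DESeq2 1.42.0 and limma 3.58.1 (voom) served as alternatives. Scripts were tested on simulated data. Within groups, replicates differed by far more than sampling noise (chi-square per degree of freedom 28.8 to 481). All 35 genes are described whether called or not; from other lists, up to 4 called genes by smallest adjusted p, and the 10 other genes with the largest ratio in vehicle replicate 3, were named. Members and lists were chosen with earlier results of these data known. Promoters are RefSeq's, on another build than the counts.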

Additional observations from a re-analysis of the deposited data

Results flagged for a closer look

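Each of the 35 genes was looked at in each of the 3 groups. In 35 of these sets of 4 libraries the highest library stood apart from the other 3 by more than Dixon's critical share of the group's range. Chance alone gives about 1 in 20 for a single set. A. faecalis replicate 1 was the highest of its group for 27 of the 35 genes, and S. aureus replicate 1 for 31. Sets of the same library are therefore not independent, and their counts are not to be read against that share. Vehicle replicate 3 had already been singled out for its fat signal, and it was the highest library for 34 of the 35 genes, so its 25 sets are a description and are not to be read against that share.

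In S. aureus replicate 1 this held for 3 genes, with 27.5 CPM for Pparg, 14.4 CPM for Ucp1 and 378 CPM for Car3. In A. faecalis replicate 1 it held for 7, with 535 CPM for Plin4, 485 CPM for Cidec, 2554 CPM for Lpl, 825 CPM for Acsl1, 229.9 CPM for Lipe, 113 CPM for Agpat2 and 765 CPM for Car3.

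In vehicle replicate 3 it held for 25 genes. Among lipid droplet proteins the level was 11.5 CPM for Plin1, 1309 CPM for Plin4 and 894 CPM for Cidec. Among secreted factors the level was 565 CPM for Adipoq, 2207 CPM for Lep, 175 CPM for Retn and 274 CPM for Cfd. Among transcriptional regulators the level was 71.1 CPM for Pparg, 365 CPM for Cebpa and 132 CPM for Thrsp. For fatty acid uptake and binding the level was 7261 CPM for Lpl, 2685 CPM for Fabp4 and 1513 CPM for Acsl1. For lipolysis and glycerol release the level was 535 CPM for Lipe, 909 CPM for Pnpla2 and 3.58 CPM for Adrb3. For triglyceride synthesis the level was 1232 CPM for Dgat2, 244 CPM for Agpat2, 905 CPM for Gpd1 and 132 CPM for Pck1. For fatty acid synthesis and glucose supply the level was 307 CPM for Fasn, 295 CPM for Acly, 146 CPM for Pcx and 54.9 CPM for Slc2a4. Car3 was at 3960.3 CPM, and it was the gene that stood apart in all 3 groups.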

How the results depend on the processing

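For S. aureus against vehicle, the 5 genes called lower became 23 with DESeq2, 3 with no filter on low counts, 20 at an adjusted p under 0.1 and 0 when only these groups were fitted. The 1 called higher became 0 in that last fit. Of all genes, 2.97% were called lower at first, 7.21% with DESeq2, 1.56% with no filter and 0.629% in that last fit. Leaving out 1 library gave 0 to 10 lower and 0 to 1 higher. For S. aureus against A. faecalis, the 2 called lower became 5 with DESeq2, 10 when only these groups were fitted, 4 at an adjusted p under 0.1 and 1 to 12 with 1 library left out. In that comparison 5.06% of all genes were called lower at first, 7.74% with DESeq2 and 8.78% when only these groups were fitted. The share was 2.63% to 8.65% with 1 library left out. For an adjusted p under 0.1, the share of all genes is not given here for either comparison. Upper-quartile scaling and DESeq2 size factors gave the same counts of members. Over all genes, the calls for S. aureus against vehicle were 705 higher and 541 lower with TMM, 619 and 679 with upper-quartile scaling, and 774 and 489 with DESeq2 size factors. A. faecalis against vehicle gave 0 calls under every alternative run, among all 35 genes except with DESeq2, which gave 33 of them an adjusted p, and the 1 CPM filter, which kept 34. The cause of these shifts was not tested.

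With 1 library left out, the median log2 fold change lay between -1.36 and -0.53 for S. aureus against vehicle and between -0.68 and 0.17 for A. faecalis against vehicle. In that last comparison 25 genes changed sign in at least 1 such fit, all but Acly in the fit without vehicle replicate 3. The ranges were -0.27 to 0.056 for Acaca, -0.0036 to 0.10 for Acly, -0.45 to 0.23 for Acsl1, -0.78 to 0.35 for Adipoq, -1.30 to 0.27 for Adrb3, -0.56 to 0.17 for Agpat2, -1.58 to 0.23 for Car3, -0.34 to 0.18 for Cd300lg and -0.41 to 0.14 for Cidea. They were -0.54 to 0.31 for Cidec, -0.46 to 0.33 for Fasn, -0.42 to 0.34 for Gpd1, -1.47 to 0.14 for Lep, -0.64 to 0.24 for Lipe, -0.89 to 0.19 for Lpl, -1.14 to 0.32 for Pck1, -0.87 to 0.039 for Pcx and -1.93 to 0.66 for Plin1. The remaining ranges were -0.77 to 0.11 for Plin4, -0.42 to 0.30 for Pnpla2, -0.51 to 0.36 for Pparg, -1.17 to 0.12 for Retn, -0.94 to 0.22 for Slc2a4, -1.04 to 0.58 for Thrsp and -0.56 to 0.052 for Tusc5. For S. aureus against vehicle the range for Plin1 was -2.44 to 0.16. With limma-voom Plin1 had 0.92 for A. faecalis and 0.44 for S. aureus against vehicle. Adrb3 was dropped by a filter at a mean of 1 CPM.

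Replicate numbers did not pair the libraries. Deviations from the group means correlated between -0.21 and 0.182 over 12 same-number pairs, 3 of them over 0.1, and 3 of 12 libraries correlated best with their own number. With the replicate number as a block, 1 gene was called lower (2.01% of all genes) and 1 higher (3.68%) for S. aureus against vehicle. The edgeR adjusted p in that fit was 0.0524 for Thrsp, 0.0566 for Aqp7, 0.0825 for Agpat2 and 0.0997 for Car3.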
